A study of Bos taurus with 34 samples.

Results

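The ovulatory (ipsilateral) and the opposite (contralateral) mid uterine horn were compared in 5 heifers, with 1 library from each horn of each animal. These 10 libraries are 10 of the 34 in the series and were chosen by their labels, which give the animal, the side and the site. The animals were adult nulliparous Holstein heifers, numbered 10872, 10882, 11033, 11070 and 11110, that were synchronised with the 5-day CIDR-Synch protocol and slaughtered on day 2 after ovulation. Each ipsilateral library was set against the contralateral library of the same heifer, so the groups share breed, protocol, day and animals, and differ by side. The labels name no other treatment and no modified allele, and they do not say which ovary (left or right) ovulated. Libraries came from total RNA of homogenised tissue and were made with a directional kit that keeps the strand of the RNA. The series title names the endosalpinx (the lining of the oviduct) and the endometrium (the lining of the uterus), and its aim as finding embryokines, maternal signals that act on the embryo.

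In cattle 1 follicle usually ovulates, and the corpus luteum that forms at its site secretes progesterone. Blood and lymph vessels of the ovary, oviduct and horn of 1 side run close together, a route by which ovarian hormones are thought to reach the near horn at higher concentration than the far one. Endometrium holds a luminal and glandular epithelium, a collagen-rich stroma, vessels and resident immune cells. Progesterone and oestradiol act on it through nuclear receptors, and shortly after ovulation the embryo is still in the oviduct.

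Total counts in the 10 libraries ran from 18074984 to 23287192. Levels are given as CPM, counts scaled to a common library size by the TMM method, and can be compared between libraries for 1 transcript but not between genes, because reads were counted by transcript and lengths were not used. The labelled tissue was checked by its markers: HOXA10 and HOXA11, homeobox genes of the uterus, stood at 75.5 to 217.8 CPM and at 188.2 to 448.8 CPM in the 10 libraries, and OVGP1, the oviduct-specific glycoprotein, at 1.30 CPM or less. OVGP1 is a weak check, since it stood at only 7.12 CPM in the ampulla of heifer 10882 (mean of its libraries). Its 1.30 CPM was in the contralateral mid horn of the same heifer. The contralateral library of heifer 10882 stood apart, since it carried oviduct transcripts, and the counts of called transcripts between the mid horns and the results that it moves are therefore given with it and without it. Without it, 5 ipsilateral and 4 contralateral libraries were compared in a fit that kept every other library of the series. Unless stated otherwise, values over heifers follow the order 10872, 10882, 11033, 11070 and 11110, and log2 fold changes are ipsilateral minus contralateral, ± SE. The SE, intervals and p-values of the fit use the spread over the libraries of all sites. They do not measure the spread of the mid horn differences between heifers alone.

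No transcript was called between the sides. With edgeR's quasi-likelihood test, 0 of 17241 transcripts (0%) had a Benjamini-Hochberg adjusted p under 0.05, and the lowest adjusted p was 0.928. At an unadjusted p under 0.05 there were 513 transcripts (2.98%), of which 434 were lower (2.52%) and 79 higher (0.458%) on the ipsilateral side. Without the contralateral library of heifer 10882, edgeR again called 0, of 17223 (0%), with an adjusted p of 1 throughout. At an unadjusted p under 0.05 there were then 174 transcripts (1.01%), 106 lower (0.615%) and 68 higher (0.395%). Both shares, 2.98% and 1.01%, lay under the share of 0.05 that would be met where nothing differs. The 0 calls do not show that the sides were equal. The median log2 fold change over all transcripts was -0.02 with this library and -0.01 without it. Of all transcripts 52.4% lay below 0 and 47.6% above 0 with it, and 51.6% and 48.4% without it.

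A second count test, DESeq2, called 21 transcripts (0.122%), and all 21 were lower on the ipsilateral side. Each of the 21 had its highest level among the 10 libraries in the contralateral library of heifer 10882, and DESeq2 called 0 of 17223 (0%) without it, with 266 at an unadjusted p under 0.05. Among the called were KRT5 and KRT9, which code for keratins, NT5E, an enzyme that makes adenosine from AMP, and AGR3, a protein disulfide isomerase family member of ciliated epithelium. The edgeR count also depended on the filter: with no filter on low counts it was 140 of 38568 (0.363%), of which 138 were lower and 2 higher on the ipsilateral side. All 140 also passed the filter of the filtered test, in which 0 were called, so they were not transcripts that the filter had removed. Of these 140 transcripts, 130 had their highest level in the library of heifer 10882. Without this library that unfiltered test called 13 of 38491 (0.0338%), 12 lower and 1 higher. The lower ones held KRT5, KRT9 and CRISP3, a cysteine-rich secretory protein, and also the structural RNAs RN7SL1 (log2 fold change -2.49) and RN18S1 (-0.90) and the microRNA gene MIR2887-1 (-1.76). Of the 13, 5 were highest in the library of heifer 10882.

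The oviduct genes made the widest difference between the sides, and they came mostly from 1 library. KRT5, the keratin of basal epithelial cells, stood at 0.275, 0.273, 1.21, 3.13 and 5.86 CPM in the ipsilateral horns. In the contralateral horns it stood at 6.14, 454, 4.47, 3.69 and 40.5 CPM. It was lower on the ipsilateral side in all 5 heifers, although the 2 sides overlapped in range. The log2 fold change was -4.99 ± 1.29 (edgeR, unadjusted p 0.000722, not called), and without the library of heifer 10882 it was -2.41 ± 0.72 (unadjusted p 0.00257, not called). MSLN, mesothelin, a surface protein of oviduct epithelium and mesothelium, followed 1 library only: it stood at 793 CPM in the contralateral horn of heifer 10882 and at 2.98 to 61.4 CPM in the other 9 libraries. The fitted log2 fold change moved from -2.29 ± 0.94 to -0.25 ± 0.46 when that library was left out.

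Of 20 genes listed for oviduct basal and secretory epithelium, 19 were tested. With all libraries 18 of the 19 were lower on the ipsilateral side and 15 had an unadjusted p under 0.05 in that direction, with a median log2 fold change of -2.44 (also -2.44 with transcripts at 0 set at their bound). Without the library of heifer 10882, 15 were lower, 6 had such a p, and the median was -0.78 (-0.72 with the bound). In that library 16 of the 19 had their highest level of the 10 mid horns, and the 19 stood at 7.3% to 96.4% of the mean of the same heifer's ampulla libraries, with a median of 26.8%. TMEM151A, a transmembrane protein gene, stood at 30.8 CPM there, at 0.654 CPM or less in the other mid horns and at 62.6 CPM in the ampulla. GPX2, a glutathione peroxidase of epithelia, stood at 96.7, at most 28.7 and 355 CPM in the same order. The list was chosen with the oviduct content of this library known, so its direction is not independent evidence.

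**Figure D1:**
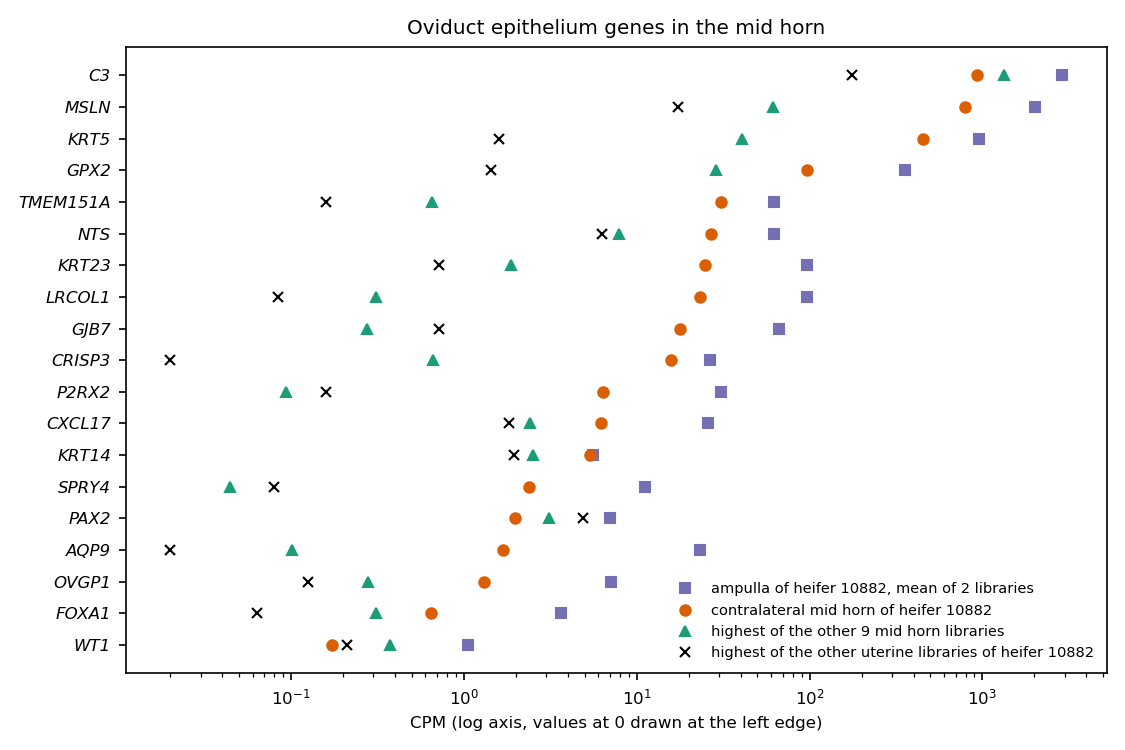
Levels in CPM (log axis) of the 19 oviduct epithelium genes with a feature, in the contralateral mid horn of heifer 10882 (circles), the mean of the 2 ampulla libraries of that heifer (squares), the highest of the other 9 mid horn libraries (triangles) and the highest of its other uterine libraries (crosses). For 16 of the 19 genes the circle lies to the right of the triangle, and for all 19 it lies to the left of the square.

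Some oviduct genes had no counts on the ipsilateral side. CRISP3 had 383 counts in the contralateral and 0 in the ipsilateral libraries, at least 124-fold higher on the contralateral side with a bound of 3 counts over the group. Without the library of heifer 10882 it had 17 and 0 counts, at least 6.98-fold higher. P2RX2, an ATP-gated ion channel, was at least 49.2-fold higher contralaterally with 152 counts against 0, and without that library it had 4 against 0. LRCOL1 gave a ratio of 267 on 550 and 2 counts, with an exact counting interval of 73.6 to 2210. Without the library of heifer 10882 this ratio was 8.01 on 13 and 2 counts, with an interval of 1.81 to 73.1. Such bounds and intervals cover counting error only, not the spread between heifers.

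In the same library, genes of other kinds were also far from the rest. CXCL3 and CXCL5, chemokines that attract neutrophils, stood at 647 and 158 CPM in it, against 7.67 to 33.5 and 3.69 to 16.3 CPM in the other 9. SDF2L1, an endoplasmic reticulum chaperone partner, stood at 312 CPM against 15.0 to 39.8 CPM. TIMP2, an inhibitor of matrix metalloproteinases, stood at 2231 CPM against 482.6 to 985.9 CPM. Without this library the log2 fold changes of these 4 were -0.06 ± 0.53, -0.63 ± 0.63, -0.53 ± 0.48 and 0.28 ± 0.28. Whether these levels came with the oviduct transcripts was not tested.

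Stromal genes stood higher on the ipsilateral side as a group, without a called member. All 17 tested genes of 20 listed had a log2 fold change above 0, from 0.00 to 0.63 with a median of 0.36, and 16 of 17 did without the library of heifer 10882, with a median of 0.28. COL1A2, a chain of type I collagen, stood at 22769, 30865, 25804, 23425 and 13609 CPM in the ipsilateral horns and at 14719, 15245, 10454, 19652 and 13509 CPM in the contralateral ones. It was higher ipsilaterally in each heifer, by little in heifer 11110, and the sides overlapped. Its log2 fold change was 0.63 ± 0.26 (edgeR, unadjusted p 0.0227, not called), and 0.57 ± 0.29 (unadjusted p 0.0584) without that library. COL3A1, type III collagen, stood at 29601 to 35717 CPM ipsilaterally and at 18012 to 31532 CPM contralaterally, with a log2 fold change of 0.52 ± 0.55. VIM, which codes for the mesenchymal filament vimentin, had a log2 fold change of 0.28 ± 0.30 and was higher ipsilaterally in 5 of 5 heifers.

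The summed level of the 18 stromal genes with a feature ran from 55825 to 78381 CPM ipsilaterally and from 38489 to 63567 CPM contralaterally. COL3A1 and COL1A2 made most of each sum. Of the 17 tested members, 11, 14, 16, 14 and 9 were higher ipsilaterally, so in heifer 11110 they split 9 to 8. The log2 ratio of the sums was above 0 in every heifer, at 0.48, 0.88, 0.97, 0.11 and 0.16, with a mean of 0.52 ± 0.40 (SD, n = 5; exact two-sided sign-flip permutation test, p = 0.0625, the smallest that 5 pairs allow). Without heifer 10882 the mean was 0.43 ± 0.40 (SD, n = 4; the same exact test, p = 0.125, the smallest that 4 pairs allow). Sums were formed for 32 lists, and none of them can pass 0.05 in this design. Random signs would move a share of 0.0625 of such lists one way in all 5 heifers. In bulk tissue, fewer cells of a type and less RNA per cell cannot be told apart. General epithelium genes moved clearly against the stroma in heifers 10882 (median -1.09 against 0.82) and 11033 (-0.68 against 0.86). In heifers 10872, 11070 and 11110 the epithelium medians were 0.0, -0.02 and 0.14, and the stromal medians 0.32, 0.25 and 0.01. Whether the share of epithelium in a piece sets the level of the stromal genes was not tested.

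Genes of matrix remodelling went the same way in part, with 19 of 26 higher ipsilaterally, a median of 0.30 and a median of 0.28 without the library of heifer 10882. ADAMTS5, a proteoglycan-cleaving protease, stood at 47.3, 51.8, 67.3, 25.3 and 44.9 CPM ipsilaterally and at 33.4, 33.5, 24.7, 29.4 and 32.0 CPM contralaterally. Heifer 11070 was the 1 animal in which it was lower ipsilaterally, and the log2 fold change was 0.60 ± 0.26. SERPINE2, a secreted inhibitor of serine proteases, gave 1.12 ± 0.44 and was also higher in 4 of 5 heifers. MMP2 and SPARC, a gelatinase and a collagen-binding glycoprotein, gave 0.50 ± 0.40 and 0.35 ± 0.24. The 2 genes of this list with an unadjusted p under 0.05, ADAMTS5 and SERPINE2, kept it without the library of heifer 10882, at 0.0396 and 0.0426.

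**Figure D2:**
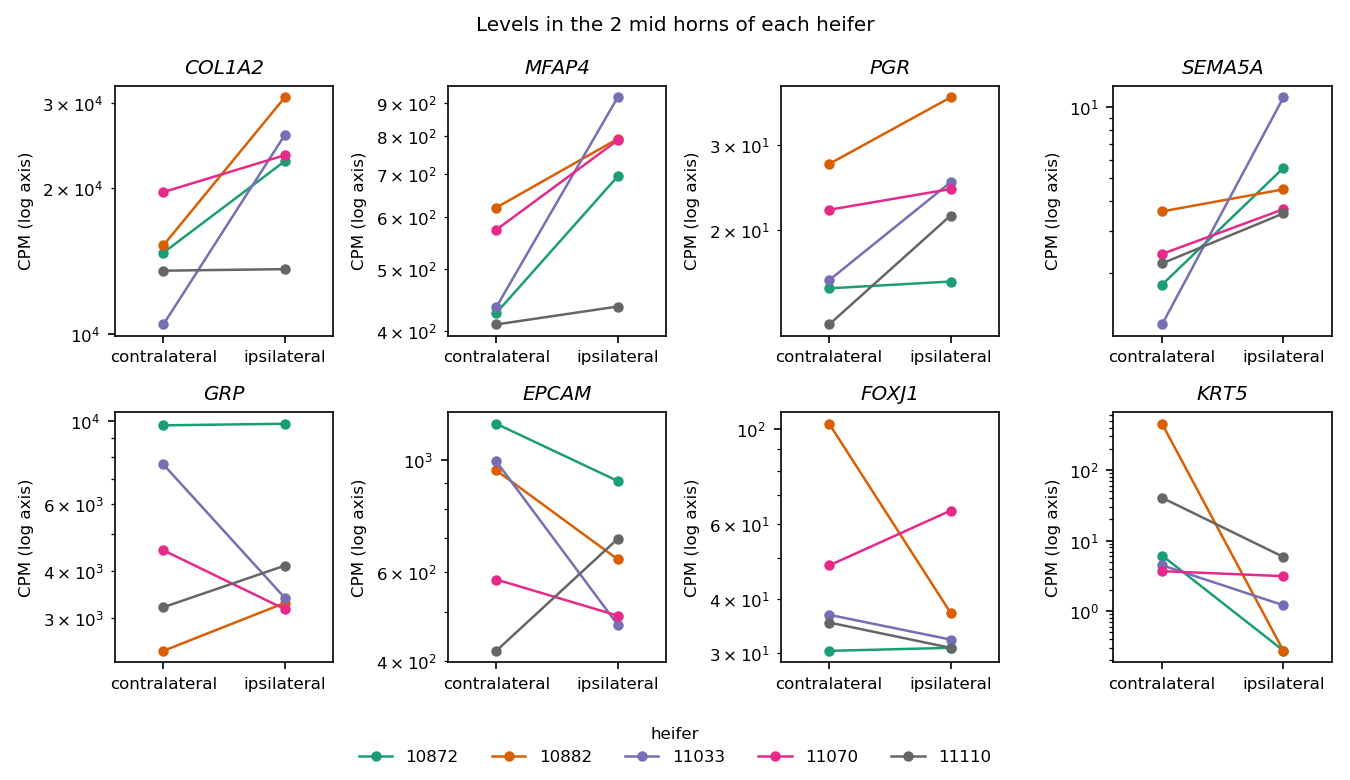
Levels in CPM (log axis, a separate scale for each gene) of 8 transcripts in the contralateral and ipsilateral mid horn, with a line for each of the 5 heifers. Lines for COL1A2, MFAP4, PGR and SEMA5A go up in all 5 heifers, that for KRT5 goes down in all 5, and those for GRP, EPCAM and FOXJ1 cross.

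Epithelial genes leaned to the contralateral side. Of 14 tested general epithelium genes 12 were lower ipsilaterally with a median of -0.37, and without the library of heifer 10882 it was 10 of 14 with a median of -0.20. EPCAM, the epithelial adhesion molecule, stood at 908, 635, 471, 491 and 697 CPM ipsilaterally and at 1179, 953, 993, 579 and 418 CPM contralaterally. It was lower ipsilaterally in 4 heifers and higher in heifer 11110, with a log2 fold change of -0.31 ± 0.26. SPINT2, a Kunitz protease inhibitor of epithelia, gave -0.33 ± 0.26 and the keratin KRT18 gave -0.60 ± 0.27, which became -0.21 ± 0.24 without the library of heifer 10882, in which KRT18 stood at 543 CPM against 151 to 314 CPM elsewhere. In that library the general epithelium genes were high together with the oviduct genes, and the part of the oviduct transcripts in their difference was not tested beyond leaving it out.

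Gland genes split, 8 of 12 lower and 4 higher, with a median of -0.17 and of -0.20 without the library of heifer 10882. MSX1 and SOX17, transcription factors of uterine epithelium, gave -0.03 ± 0.36 and -0.20 ± 0.22. Ciliated epithelium genes had 25 of 27 lower, 7 of them with an unadjusted p under 0.05, and a median of -0.57. Without the library of heifer 10882, 21 were lower, 1 had such a p and the median was -0.27. Heifer 11070 went the other way, with 21 of 27 higher ipsilaterally and a median of 0.25. In heifers 10872, 10882, 11033 and 11110 the medians were -0.34, -1.31, -0.73 and -0.2. FOXJ1, the transcription factor of motile cilia, stood at 30.8, 37.2, 32.2, 64.5 and 30.8 CPM ipsilaterally and at 30.3, 103, 36.8, 48.0 and 35.3 CPM contralaterally. The fitted log2 fold change moved from -0.40 ± 0.54 to 0.07 ± 0.53 without that library. RSPH4A, a radial spoke protein of cilia, was the 1 gene of these 27 whose sides did not overlap, against 0.365% of all transcripts. It stood at 0.454 to 1.70 CPM ipsilaterally and 2.01 to 5.19 CPM contralaterally. Its log2 fold change was -1.39 ± 0.44, and -1.02 ± 0.45 without the library of heifer 10882 (edgeR, unadjusted p 0.00361 and 0.0289, neither called).

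Vessel and muscle genes leaned to the ipsilateral side. All 14 tested endothelium and pericyte genes were above 0, with a median of 0.32, and 13 of 14 were without the library of heifer 10882, with a median of 0.23. NOTCH3, a receptor of pericytes and vascular muscle, stood at 343, 412, 335, 360 and 424 CPM ipsilaterally and at 337, 279, 195, 336 and 433 CPM contralaterally, with a log2 fold change of 0.28 ± 0.33. The gap was wide in heifers 10882 and 11033 and small in the other 3. Of 12 smooth muscle genes 9 were higher ipsilaterally, with a median of 0.30 (9 of 12 and 0.28 without the library of heifer 10882). CNN1, the contractile regulator calponin, stood at 354, 441, 345, 230 and 77.6 CPM ipsilaterally and at 117, 368, 196, 159 and 115 CPM contralaterally, and was lower ipsilaterally in heifer 11110 only.

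Leukocyte genes were higher ipsilaterally in 10 of 14 cases, with a median of 0.24 (11 of 14 and 0.20 without the library of heifer 10882). JCHAIN, the joining chain of plasma cell antibodies, stood at 8.15, 1763, 12.2, 129 and 589 CPM ipsilaterally and at 11.0, 1085, 12.02, 140 and 235 CPM contralaterally. Heifer 10882 was highest on both sides and heifers 10872 and 11033 were lowest on both, so that this gene differed more between animals than between sides, and the log2 fold change was 0.54 ± 0.82. CSF1R, the growth factor receptor of macrophages, gave 0.25 ± 0.28. Of the other cell types that a piece could hold, mesothelium genes had 5 of 6 lower with a median of -0.26, and 4 of 6 with a median of -0.14 without the library of heifer 10882. Ovarian follicle and luteal genes had 4 of 6 higher with a median of 0.19, which was 0.02 without it, and erythroid genes had 2 of 3 lower with medians of -0.13 and -0.16. Summed, the ovarian genes stood at 22.0 to 48.6 CPM ipsilaterally and at 31.4 to 39.2 CPM contralaterally.

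Receptors of the ovarian steroids showed no called difference. PGR, the progesterone receptor, stood at 15.6, 37.7, 25.1, 24.3 and 21.4 CPM ipsilaterally and at 15.1, 27.4, 15.7, 22.0 and 12.7 CPM contralaterally. It was higher ipsilaterally in 5 of 5 heifers, by little in heifer 10872, and the sides overlapped. The log2 fold change was 0.44 ± 0.32 (edgeR, unadjusted p 0.174), and 0.53 ± 0.35 without the library of heifer 10882. The oestrogen receptor gene ESR1 could not be tested, as its feature had 24 counts in all 10 libraries and at most 0.301 CPM. PGRMC1, a membrane progesterone receptor component, gave -0.13 ± 0.23 and FKBP4, a co-chaperone of steroid receptors, gave -0.13 ± 0.22. Of the 11 tested receptors and partners 6 were higher and 5 lower, with a median of 0.03, and the split was 8 to 3 with DESeq2 size factors.

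Genes known to respond to oestradiol in endometrium had 9 of 13 higher, with a median of 0.24 (0.30 without the library of heifer 10882). Genes known to respond to progesterone had 10 of 19 higher, with a median of 0.12 (0.16), and 12 of 19 with DESeq2 size factors. STC1, the secreted hormone stanniocalcin, gave 0.17 ± 0.35. CST6, a cystatin protease inhibitor, stood at 518, 62.1, 92.0, 120 and 213 CPM ipsilaterally and at 368, 137, 144, 237 and 248 CPM contralaterally, lower ipsilaterally in 4 of 5 heifers, with a log2 fold change of -0.49 ± 0.49. OXTR, the oxytocin receptor, was split by animal: it stood at 240, 77.4, 121, 53.3 and 181 CPM ipsilaterally and at 241, 92.5, 137, 95.1 and 91.6 CPM contralaterally. Its log2 fold change was -0.01 ± 0.49, and it was higher ipsilaterally in heifer 11110 alone. Prostaglandin synthesis and transport genes had 8 of 12 lower with a median of -0.06, and 6 of 12 with a median of -0.05 without the library of heifer 10882. Their summed level was lower ipsilaterally in every heifer, at 281 against 282 CPM in heifer 11110, with a mean log2 ratio of -0.13 ± 0.15 (SD, n = 5; exact sign-flip permutation test, p = 0.0625). The members did not all follow the sum. In heifer 10882, at 199 against 206 CPM, 9 of 12 were higher ipsilaterally with a median of 0.38, and in heifer 11110 they split 6 to 6. HPGD, which inactivates prostaglandins, gave -0.27 ± 0.41 and the synthase PTGES2 gave -0.30 ± 0.24.

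Among the candidate embryokines, 13 of 29 were higher and 16 lower, with a median of -0.05, which became 17 and 12 with a median of 0.10 without the library of heifer 10882. GRP, gastrin-releasing peptide, is a neuropeptide secreted by uterine glands. It stood at 9822, 3280, 3384, 3158 and 4121 CPM ipsilaterally and at 9728, 2446, 7654, 4526 and 3195 CPM contralaterally. Heifer 10872 was highest on both sides, heifers 10882 and 11110 were higher ipsilaterally and heifers 11033 and 11070 lower, so the log2 fold change was -0.13 ± 0.64. HDGF, a growth factor that binds heparin, was close to even at 426 to 605 CPM ipsilaterally and 448 to 531 CPM contralaterally, with 0.04 ± 0.22 and a 95% interval inside 2-fold.

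WNT ligands and inhibitors leaned to the ipsilateral side in the fit, with 24 of 28 above 0, 0 at an unadjusted p under 0.05 and a median of 0.31 (25 of 28 and 0.22 without the library of heifer 10882). Heifer 11070 went the other way, with 7 higher, 21 lower and a median of -0.23. In heifers 10872, 10882, 11033 and 11110 the medians were 0.38, 0.16, 0.53 and 0.35. DKK3 and SFRP1, secreted modulators of WNT signals, gave 0.17 ± 0.34 and 0.37 ± 0.35, and both were higher in 4 of 5 heifers. SFRP2, of the same family as SFRP1, was the 1 gene of the 28 whose sides did not overlap, against 63 of all 17241 transcripts (0.365%). It stood at 66.8, 79.5, 139, 64.8 and 58.1 CPM ipsilaterally and 54.2, 43.2, 49.6, 54.9 and 48.7 CPM contralaterally. Between the sides the log2 fold change was 0.68 ± 0.63, and most of it came from heifers 11033 and 10882. IGF binding proteins, which hold insulin-like growth factors in tissue, had 9 of 9 above 0 with a median of 0.35 (8 of 9 and 0.24). Their summed level was higher ipsilaterally in every heifer, by a log2 of 0.29 ± 0.15 (SD, n = 5; exact sign-flip permutation test, p = 0.0625). In heifer 11070 the sums differed by a log2 of 0.08 only, with 4 members higher and 5 lower. In heifer 11033 all 9 were higher, with a median of 1.11. IGFBP7 and IGFBP4 gave 0.25 ± 0.23 and 0.22 ± 0.22. HOX genes and regulators of the Müllerian duct, the embryonic duct that forms the tract, had 16 of 26 higher with a median of 0.07.

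**Figure D3:**
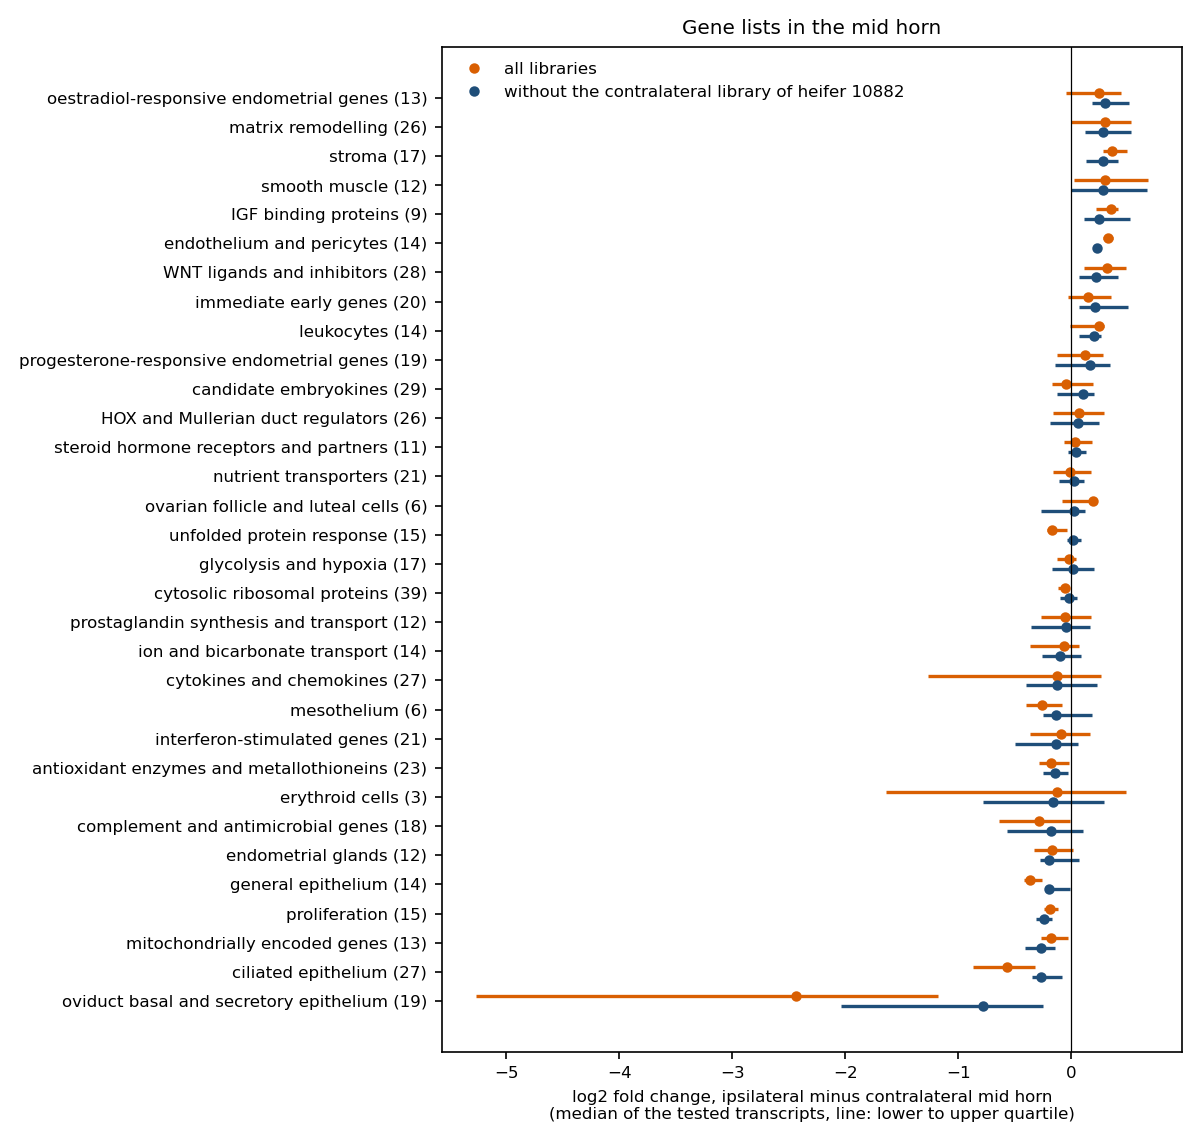
Median (point) and quartiles (line) of the log2 fold change, ipsilateral minus contralateral mid horn, over the tested transcripts of each of 32 gene lists, with the number of transcripts in brackets, for all libraries and without the contralateral library of heifer 10882. The oviduct list moves from -2.44 to -0.78 and the ciliated list from -0.57 to -0.27, and the medians of all other lists lie between -0.37 and 0.36 with all libraries.

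Nutrient transporters had 10 of 21 higher with a median of -0.01 (12 of 21 and 0.02 without the library of heifer 10882), and SLC2A1, a glucose transporter, gave -0.03 ± 0.16. Ion and bicarbonate transport genes had 5 of 14 higher with a median of -0.07, and 7 of 14 with DESeq2 size factors. Complement and antimicrobial genes had 13 of 18 lower and a median of -0.29 (12 of 18 and -0.18 without that library). By heifer their medians were 0.15, -0.89, -0.43, -0.13 and 0.34, and their summed level was higher ipsilaterally in 3 of 5 heifers. Interferon-stimulated genes had 13 of 21 lower with a median of -0.09 (14 of 21 and -0.14), and cytokines and chemokines 17 of 27 lower with a median of -0.13 (16 of 27 and -0.13). C3, the central complement component, stood at 1328 and 1006 CPM in the ipsilateral and contralateral horn of heifer 11110 and at 925 CPM in the contralateral horn of heifer 10882, against 104 to 172 CPM in the other 7 libraries. C1S, a complement protease, gave 0.48 ± 0.28.

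Proliferation genes had 13 of 15 lower with a median of -0.19, and 15 of 15 with a median of -0.24 without the library of heifer 10882, though 0 had an unadjusted p under 0.05. Their medians were -0.48 in heifer 11033 and -0.19 in heifer 11070. In heifers 10872, 10882 and 11110 they were -0.04, -0.02 and -0.08, with 7 higher and 8 lower in each. PCNA and MCM6, which act in DNA replication, gave -0.21 ± 0.24 and 0.02 ± 0.24. Antioxidant genes had 18 of 23 lower with a median of -0.18. Genes of glycolysis and hypoxia were even, 8 higher and 9 lower, with a median of -0.02. Unfolded protein genes had 12 of 15 lower with a median of -0.17, and 7 of 15 with a median of 0.01 without that library (4 of 15 with DESeq2 size factors), in which HSP90B1, a chaperone of the endoplasmic reticulum, stood at 4294 CPM against 949 to 1758 CPM elsewhere. Mitochondrially encoded genes had 11 of 13 lower (median -0.18, and -0.27 without that library) and cytosolic ribosomal proteins 32 of 39 (median -0.06). With DESeq2 size factors these counts were 9 of 13 and 24 of 39. The 95% interval lay inside 2-fold for 35 of 39 ribosomal genes, and for 33 of 39 without the library of heifer 10882, where they split 22 lower and 17 higher, and 18 lower and 21 higher with DESeq2 size factors.

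Immediate early genes, which respond within minutes to handling and to growth signals, had 15 of 20 higher with a median of 0.15 (17 of 20 and 0.21 without the library of heifer 10882). JUN, a subunit of the AP-1 factor, stood at 1064, 1247, 746, 1573 and 520 CPM ipsilaterally and at 1153, 1156, 775, 977 and 423 CPM contralaterally. EGR1, a zinc finger factor of the same response, was higher ipsilaterally in 5 of 5 heifers, at 87.2, 340, 64.4, 185 and 71.1 CPM against 86.9, 186, 42.8, 79.5 and 51.4 CPM, with 0.59 ± 0.63. The median of the list was 0.87 in heifer 11070 and between -0.09 and 0.23 in the other 4.

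The transcripts with the lowest p in either fit were mostly scarce. In the fit with all libraries the lowest was C4H7orf78, an open reading frame of unknown role here, at 0 to 0.0505 CPM ipsilaterally and 0.151 to 0.821 CPM contralaterally (edgeR, unadjusted p 8.5e-05, adjusted p 0.928). Next to oviduct genes stood ICAM5, a cell adhesion molecule, at 0.320 to 0.927 CPM against 0.712 to 10.7 CPM, with a log2 fold change of -2.37 ± 0.57 and of -1.19 ± 0.42 without the library of heifer 10882. On the ipsilateral side the lowest p without that library belonged to SEMA5A, a semaphorin guidance protein. SEMA5A stood at 5.54, 4.50, 11.0, 3.71 and 3.56 CPM ipsilaterally and at 1.78, 3.63, 1.21, 2.40 and 2.19 CPM contralaterally. It was higher ipsilaterally in each heifer and widest in heifer 11033. The log2 fold change was 1.35 ± 0.45, and 1.59 ± 0.48 without the library of heifer 10882 (edgeR, unadjusted p 0.0055 and 0.00277, not called). FNDC1, a fibronectin type III domain protein, had 2 features: one gave 1.25 ± 0.49, and 1.69 ± 0.52 without that library, and was lower ipsilaterally in heifer 11070, while the other gave 0.08 ± 0.61.

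Agreement over the 5 animals was counted next. Of all transcripts 1015 (5.89%) moved one way in all 5 heifers, 557 of them higher (3.23%) and 458 lower (2.66%) on the ipsilateral side, and 1695 (9.83%) did so in the 4 heifers other than 10882. Random signs would give a share of 0.0625 in 5 heifers and of 0.125 in 4, and neither share was above it. A direction shared by 5 of 5 heifers is thus no mark of a difference by itself. The sides did not overlap in 63 transcripts (0.365%), 31 higher and 32 lower. At 100 CPM or more, 6.3% of 1634 transcripts moved one way in all 5 heifers, and at 10 to 100 CPM 6.34% of 3500. These transcripts were uneven in direction at 100 CPM or more, 89 higher and 14 lower, against 129 and 93 at 10 to 100 CPM. Over all 1634, however, 871 lay above 0 and 763 below, with a median log2 fold change of 0.016. Among the abundant ones, chosen after their values were seen, MFAP4, a protein of elastic fibres, stood at 694, 793, 919, 789 and 437 CPM ipsilaterally and at 427, 621, 436, 574 and 410 CPM contralaterally. Its log2 fold change was 0.56 ± 0.26, and 0.60 ± 0.28 without the library of heifer 10882. MMP14, a membrane collagenase, gave 0.60 ± 0.31, CCDC80, a matrix protein, gave 0.67 ± 0.34 and TIMP3, a metalloproteinase inhibitor, gave 0.40 ± 0.23, each higher in 5 of 5 heifers. SEC61G, a subunit of the protein channel of the endoplasmic reticulum, was lower in 5 of 5 at -0.49 ± 0.26.

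The heifers differed in how far their horns lay apart. Over the 5134 transcripts at 10 CPM or more, the share that differed by more than 2-fold between the 2 horns was 1.48%, 6.53%, 8.78%, 1.07% and 4.73%. Between libraries of the same side from different heifers this share ran from 4.79% to 16.8% with a median of 8.15%, and the 2 horns of 1 animal lay under that median in 4 of the 5 heifers. In heifer 11033, stromal genes had a median side difference of 0.86 in log2 CPM and general epithelium genes one of -0.68. Heifer 10882 gave 0.82 and -1.09, heifer 10872 gave 0.32 and 0.00, heifer 11070 gave 0.25 and -0.02, and heifer 11110 gave 0.01 and 0.14. Across transcripts, which are not independent, the side differences of 2 heifers correlated from -0.55 (11070 and 11110) to 0.509 (10872 and 11033), with a median of 0.0739 over 10 pairs.

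**Figure D4:**
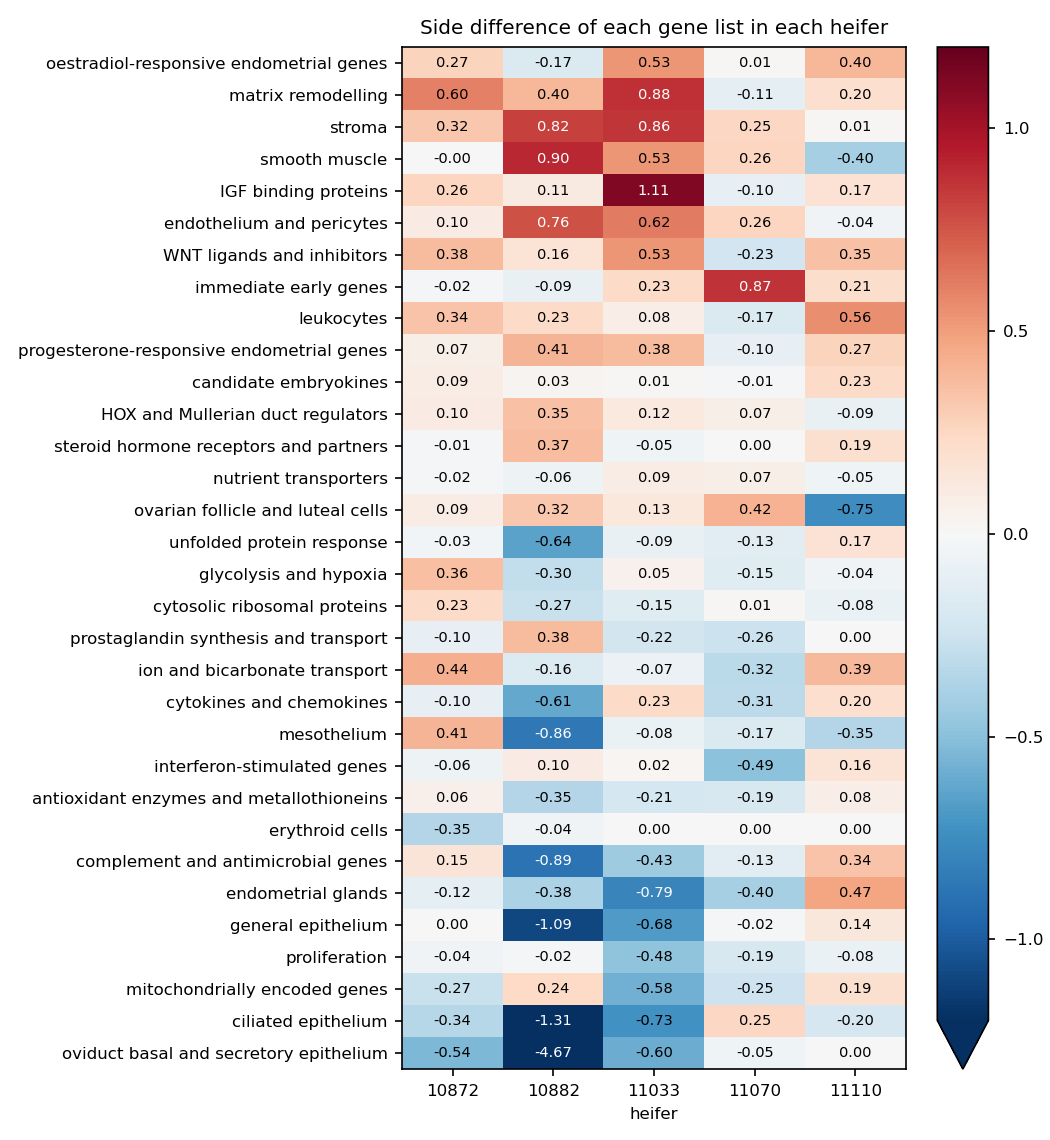
Median difference in log2 CPM, ipsilateral minus contralateral, over the tested transcripts of each of 32 gene lists (rows) in each of the 5 heifers (columns), with red for higher and blue for lower ipsilateral levels. Heifers 10882 and 11033 have the highest stromal medians (0.82 and 0.86) and the lowest epithelial ones (-1.09 and -0.68), and heifer 11110 is close to even in both (0.01 and 0.14).

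What the comparison could resolve depended on the level. The intervals rest on the spread over the libraries of all sites, not on that of the mid horn pairs alone. For transcripts at 100 CPM or more, the half-width of the 95% interval of the log2 fold change had a median of 0.45 and the interval lay inside 2-fold for 89.2%. At 10 to 100 CPM these values were 0.54 and 78.6%, at 1 to 10 CPM 0.909 and 31.8%, and under 1 CPM 1.49 and 1.22%. Over all transcripts the interval lay inside 2-fold for 5847 (33.9%), and for 5374 (31.2%) without the library of heifer 10882. For abundant genes such as VIM, SLC2A1, HDGF and RPS2, a side difference of 2-fold thus lay outside the interval. For scarce genes such as OVGP1, with an interval of -3.74 to -0.75, the size of a difference was poorly bounded.

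**Figure D5:**
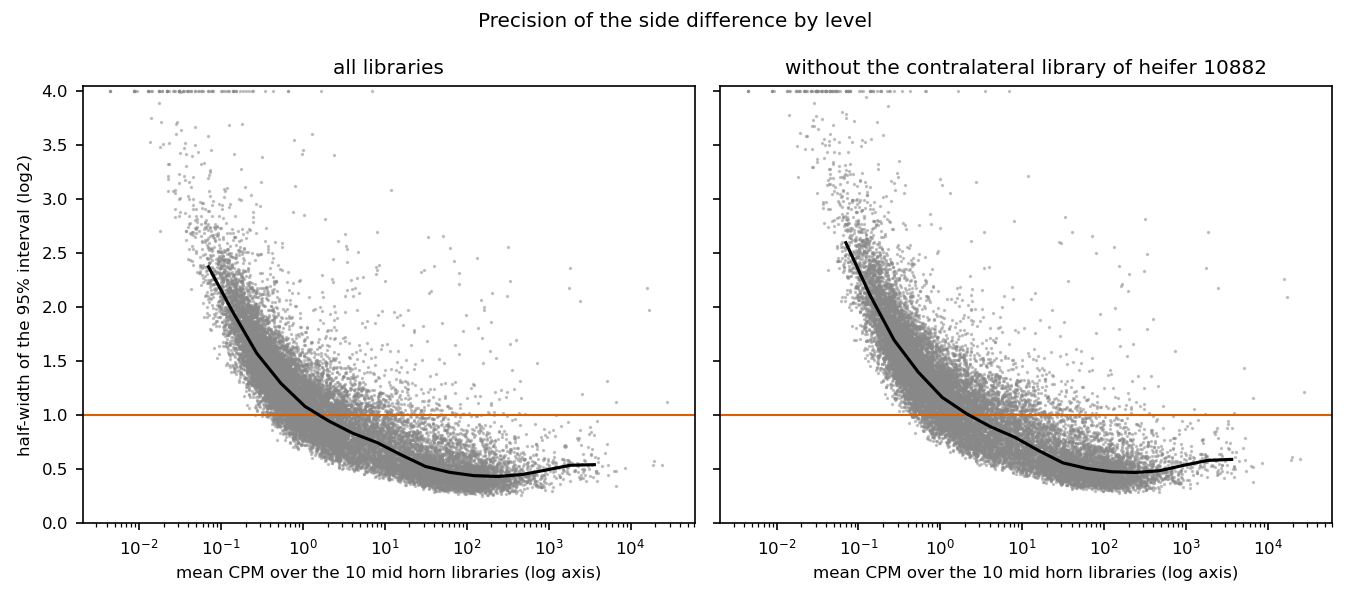
Half-width of the 95% interval of the log2 fold change (vertical axis, values above 4 drawn at 4) against the mean level in CPM over the 10 mid horn libraries (log axis), with 1 point per tested transcript, the median per level class with at least 20 transcripts (black line) and 2-fold (orange line), with all libraries and without the contralateral library of heifer 10882. The median falls from 1.49 under 1 CPM to 0.45 at 100 CPM or more.

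The same side comparison at the other sites served to ask whether the mid horn differs from them. The ipsilateral upper horn has 4 libraries, with none for heifer 11110 analysed here, so the upper horn gives 4 pairs against 5 in the mid horn. In the same fit, the upper horn had 1 called transcript of 17241 (0.0058%) and the ampulla 3 (0.0174%), all higher on the ipsilateral side. These 4, ERRFI1 in the upper horn and TIMP2, SPON2 and IGFBP3 in the ampulla, gave 0.26 ± 0.27, -0.05 ± 0.29, 0.28 ± 0.36 and 0.08 ± 0.31 in the mid horn. Without the library of heifer 10882 the mid horn value of TIMP2 was 0.28 ± 0.28. The difference between sites was tested as an interaction. With edgeR no transcript was called for the mid minus the upper horn with all libraries (0%, 252 at an unadjusted p under 0.05) or without the library of heifer 10882 (0%, 185), or for the mid horn minus the ampulla (0%, 765, and 562 without that library). DESeq2 called 2 for the mid minus the upper horn. DES, the muscle filament desmin, gave 0.22 ± 0.61 in the mid and 2.56 ± 0.72 in the upper horn, EGR1 gave 0.59 ± 0.63 and 2.87 ± 0.72, and PGR gave 0.44 ± 0.32 and 0.94 ± 0.34, with unadjusted interaction p of 0.0179, 0.0219 and 0.293 by edgeR, none of them called.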

How the data were processed

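The authors deposited 1 table of read counts per annotated feature, mostly transcripts, as whole numbers that are not normalised. Per the submitters' processing notes the tools were SAMtools, HTSeq, STAR 2.7.9a and cutadapt; what each did is not stated. Build, annotation, strandedness and how reads were assigned: not given in the sources used here, so reads shared by transcripts or by overlapping genes may be lost or misplaced. Of 38568 features, 26362 were matched to 21554 genes of a RefSeq table (ARS-UCD2.0, names only), and in the lists each gene was represented by its most counted feature.

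From these counts, edgeR 4.0.16 in R 4.3.3 (TMM, filterByExpr, robust dispersions, quasi-likelihood F test) was fitted to all 34 libraries with group and heifer as terms. Adjusted p-values follow Benjamini and Hochberg (Benjamini-Hochberg). Differences within a heifer are in log2 CPM (2 counts added as prior), and lists were summed in CPM. Totals over the series ran from 11619486 to 30412782 counts. DESeq2 1.42.0, other scaling, filters, sample sets and left-out libraries were alternatives, as the closing part describes. The fit was tested on simulated data.

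Both horns carry the same animal number in the labels, hence the heifer term. Deviations from the group means correlated at 0.461 to 0.715 over the 5 pairs of a heifer, and at a median of -0.228 over 20 other pairs. Taking off the group means pushes the other pairs below 0 where the own pairs lie above it, so -0.228 is not independent evidence. No 2 libraries of a side agreed within sampling noise (chi-square per transcript at least 61.5 over 20 pairs). Nothing more is stated of replication than 1 library per horn and animal.

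The members and lists were chosen with earlier results of these data known. By the naming rule, called transcripts would have been named by size and level; with none called, the text names from the 10 with the lowest p in each fit, the 2 members of each list with the highest mean CPM, and 11 fixed genes. Others were chosen after their values were seen, such as list members with an unadjusted p under 0.05.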

Additional observations from a re-analysis of the deposited data

Results flagged for a closer look

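In a group of 5 libraries, a level was set apart where the gap to its nearest neighbour on the log2(CPM + 0.5) scale took more than 0.71 of the whole range (Dixon's criterion). Applied to each side for the 32 summed lists and 10 single genes, this gave 12 of 84 groups, where chance gives about 1 in 20, and the lists share genes and libraries. Of the 12, 4 were the contralateral library of heifer 10882: smooth muscle genes at 737 CPM (342 to 426 in the other 4), interferon-stimulated genes at 690 CPM (443 to 498), cytokines and chemokines at 1410 CPM (290 to 386) and unfolded protein genes at 12565 CPM (5104 to 6138).

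In heifer 11110, the ipsilateral horn held 1422 CPM of oviduct epithelium genes (162 to 206 in the other 4) and 1598 CPM of oestradiol-responsive genes (301 to 397), and both lists hold C3, which was at 1328 CPM in that library. Its contralateral horn held 39.2 CPM of ovarian follicle and luteal genes (31.4 to 33.5). In heifer 10872, the ipsilateral horn held 12931 CPM of candidate embryokines (5329 to 6680), of which GRP made 9822 CPM (3158 to 4121). In heifer 11033, mitochondrially encoded genes stood at 31822 CPM ipsilaterally (38392 to 40850). In heifer 11070, the ipsilateral horn had 0.265 CPM of OVGP1 (0 to 0.0501) and 64.5 CPM of FOXJ1 (30.8 to 37.2).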

How the results depend on the processing

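The count of 0 called transcripts between the sides held with DESeq2 size factors in edgeR, with endometrial or mid horn libraries alone, without 3 doubted libraries, and without each heifer or library in turn (0 to 0). The pairing by heifer was also left out: without the replicate block 0 were called, with 454 at an unadjusted p under 0.05 and a lowest adjusted p of 0.131 by edgeR. With no filter on low counts edgeR called 140, 13 without the contralateral library of heifer 10882, and 69 for the mid minus the upper horn. DESeq2 called 21, 0 and 2. The cause was not tested. Unadjusted counts ran from 145 to 688 as heifers were left out, and fell to 174 without that 1 library. Of 32 summed lists, 3 moved one way in every heifer, 3 to 7 did with a heifer left out, and 4 as means of log2(CPM + 1). Random signs would give a share of 0.0625 with every heifer and of 0.125 with a heifer left out. For the 82 named transcripts under up to 22 alternatives, 1697 values stayed within 1 SE on the same side of the threshold, 64 moved further and 22 passed the threshold, and some scarce ones had no value in the fits to endometrial or mid horn libraries. The sign changed under some alternative for 28 of the 82, and for 14 under one other than leaving out a library or heifer. Depth limited transcripts under 1 CPM, of which 1.22% had an interval inside 2-fold.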
